A study of Mus musculus with 4 samples.

Results

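The genes described here are 9 genes that glucocorticoid hormones are known to act on or through, Ddit4, Sesn1, Fkbp5, Nr3c1, Klf15, Cebpb, Cebpd, Glul and Pik3r1, measured in whole tibialis anterior (TA) muscle of young and old mice. They were found by symbol among 20340 gene labels with a value in all 4 samples, and all 9 were among the 10266 genes that passed the filter on low values (at least 1 FPKM in at least 2 samples). The 9 genes were chosen with their levels in these same Old and Young samples already known. Their differences between ages are therefore described without a test, and a count of them past a threshold is no evidence for the group.

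Glucocorticoids are steroid hormones of the adrenal gland that bind the glucocorticoid receptor, the product of Nr3c1, which then enters the nucleus and switches genes on or off. In skeletal muscle the hormone is known for slowing protein synthesis, partly through Ddit4, and for raising the breakdown of protein and amino acids, partly through Klf15 and through ubiquitin ligases such as Fbxo32 and Trim63. Levels of the hormone follow the time of day and rise under stress, and several of its target genes also answer to feeding, insulin, oxygen and the circadian clock.

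The study sequenced mRNA of TA, a shin muscle, from C57BL/6 mice in search of genes that differ in muscle that wastes with age. The Young group was 3 months old and the Old group 20 months old, each with 2 samples. No treatment or allele was listed for either age, and hormone levels, the hour of sampling and feeding were not among the labels used here. The labels list 2 samples per age where the design text speaks of triplicates, and whether a sample was 1 mouse or a pool was not stated. Values were FPKM, fragment numbers corrected for transcript length and library size, so levels of different genes can be set side by side.

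Within an age, 1 sample was higher than the other by a similar factor for most genes. Old 1 was above Old 2 by a median of 1.11 on the log2 scale and Young 2 above Young 1 by 1.08, over 9293 tested genes above 0 in every sample, and the members moved with it (medians of 1.04 and 1.01). Among 7228 genes with at least 1 FPKM in every sample, the middle 50% of genes spanned 0.231 on the log2 scale in the ratio of the Old samples, 0.226 in that of the Young samples, and 0.542 to 0.638 between samples of different age. Depth was unknown, since FPKM holds no counts, so whether the samples of one age differ by more than sampling noise could not be tested, and any p-value measures only the spread between these samples, which may be technical. Each result is therefore given as deposited and after each sample was multiplied by 1 factor that set its median to a common value (0.651 for Old 1, 1.54 for Old 2, 1.53 for Young 1 and 0.653 for Young 2). With 2 samples against 2, an exact two-sided permutation test of a single gene cannot go below p = 0.333.

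Ddit4 (also called Redd1), an inhibitor of the growth kinase complex mTORC1, stood furthest apart between the ages. Its FPKM was 6.93 in Old 1 and 2.85 in Old 2, against 44.6 in Young 1 and 92.5 in Young 2, so that the highest Old sample was far below the lowest Young sample. After scaling the values were 4.51, 4.39, 68.1 and 60.4 in the same order, and the samples of each age lay close together. The mean was 14.0-fold higher in Young as deposited and 14.4-fold higher after scaling, or −3.56 ± 0.93 (SE) and −3.58 ± 0.12 as the log2 difference of FPKM + 1, Old minus Young (n = 2 per age). By that scaled difference Ddit4 was number 13 from the lowest of the 10266 tested genes. Each SE, here and below, is the moderated SE of a limma fit, which draws on the spread of all tested genes. It is not the SE of the 4 values of 1 gene alone. Its locus lies on the minus strand at chr10:59949675-59951770 of the mm10 build and covers nearly the whole gene as GENCODE annotates it (59949669 to 59951834).

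Sesn1 encodes a sestrin, a stress-induced protein that restrains mTORC1 by another route than Ddit4. Its FPKM was 20.4 and 10.5 in Old 1 and Old 2 and 14.3 and 27.7 in Young 1 and Young 2, and the ages overlapped. After scaling the values were 13.3 and 16.1 against 21.8 and 18.1, with both Old samples below both Young samples, and the mean was 1.36-fold higher in Young (log2 difference −0.42 ± 0.17, SE). After scaling, Ddit4 and Sesn1 each had both Old samples below both Young samples, Ddit4 by far more than Sesn1. Of all tested genes, 26.0% had that order after scaling. Ddit4l, a relative of Ddit4 described below that also restrains mTORC1, had the reverse order.

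Nr3c1, the receptor gene itself (chr18:39410540-39490895, minus strand), was the one member whose ages still overlapped after scaling. Its FPKM was 30.9 in Old 1 and 16.2 in Old 2, against 14.4 in Young 1 and 27.9 in Young 2, and the scaled values were 20.1, 24.9, 22.0 and 18.2. The log2 difference was 0.15 ± 0.18 (SE) after scaling. Fkbp5, a chaperone partner that lowers the hormone affinity of the receptor and is itself a classic target of it, was at 5.87 and 2.81 FPKM in Old 1 and Old 2 and at 12.7 and 25.6 in Young 1 and Young 2. Scaled, Fkbp5 stood at 3.82 and 4.33 in Old against 19.4 and 16.7 in Young, without overlap, and was 4.43-fold higher in Young (log2 difference −1.91 ± 0.12, SE).

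**Figure D1:**
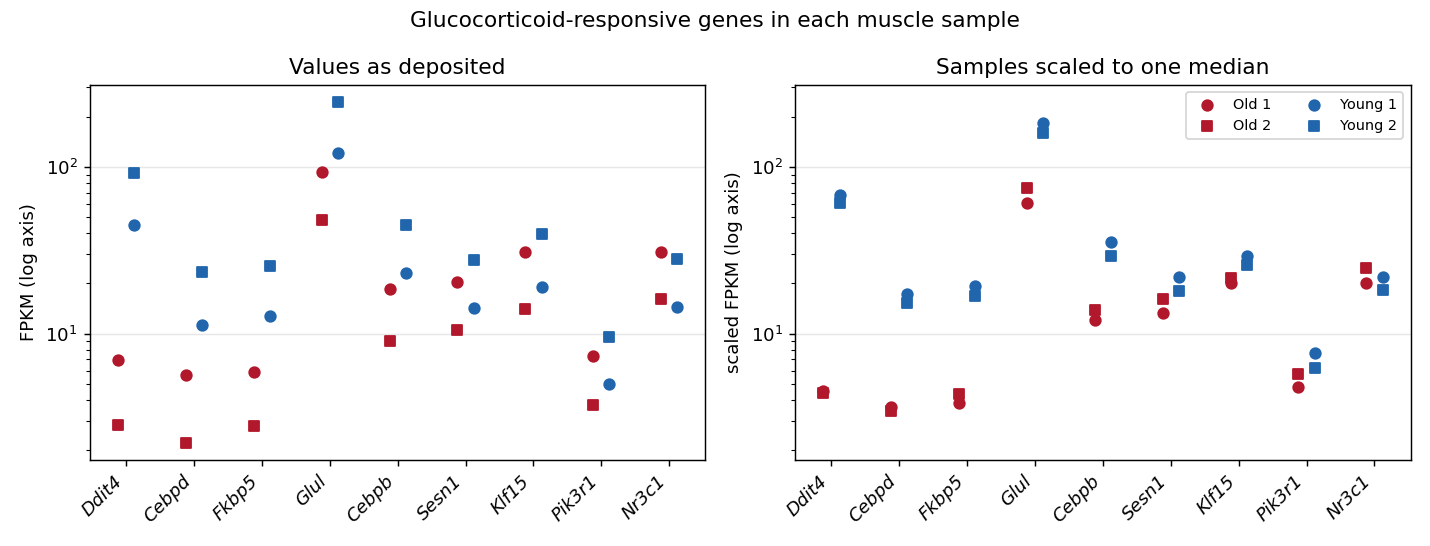
FPKM of the 9 genes in each sample on a log axis, as deposited on the left and after scaling each sample to a common median on the right; circles are samples numbered 1 and squares samples numbered 2, red Old and blue Young. On the right, Ddit4 sits at 4.51 and 4.39 in Old and at 68.1 and 60.4 in Young, and Nr3c1 alone has Old and Young values that overlap.

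The transcription factor members differed in how far they stood apart. Cebpd, a C/EBP factor induced early by glucocorticoids and inflammation, was at 5.61 and 2.22 FPKM in Old 1 and Old 2 and at 11.3 and 23.5 in Young 1 and Young 2. Its scaled values were 3.66 and 3.42 in Old against 17.3 and 15.3 in Young, a mean 4.61-fold higher in Young (log2 difference −1.93 ± 0.10, SE). Cebpb, the related factor of adipose, liver and myeloid cells, which is also made in muscle, was at 18.5 and 8.97 FPKM in Old and 23.2 and 44.6 in Young. Scaled, Cebpb was at 12.0 and 13.8 against 35.4 and 29.1, which is 2.49-fold higher in Young (−1.25 ± 0.16, SE). For both C/EBP genes the ages did not overlap on either scale.

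Klf15, a Krüppel-like factor that the receptor induces in muscle and that drives amino acid breakdown, differed less. Its FPKM was 30.9 and 14.0 in Old 1 and Old 2 and 19.0 and 39.4 in Young 1 and Young 2, which overlap. After scaling the values were 20.1 and 21.6 in Old and 29.0 and 25.7 in Young, 1.31-fold higher in Young (log2 difference −0.38 ± 0.13, SE).

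Of the metabolic and signalling members, Glul, the glutamine synthetase through which muscle releases amino nitrogen, had the highest FPKM of the 9 genes in every sample. It was at 93.7 and 48.2 FPKM in Old 1 and Old 2 and at 120.4 and 245 in Young 1 and Young 2. Scaled, Glul was at 61.0 and 74.3 against 184 and 160.0, without overlap on either scale and 2.54-fold higher in Young (log2 difference −1.34 ± 0.18, SE). Pik3r1, the regulatory subunit p85α of PI3K, which acts in insulin signalling, was at 7.37 and 3.72 FPKM in Old and 5.02 and 9.59 in Young, which overlap. After scaling it was at 4.80 and 5.74 against 7.66 and 6.26, 1.32-fold higher in Young (−0.34 ± 0.14, SE).

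The loci of the other members, in mm10, were chr17:28399095-28486112 (minus strand) for Fkbp5, chr10:41810574-41908436 (plus) for Sesn1, chr6:90462626-90479665 (plus) for Klf15, chr2:167688915-167690418 (plus) for Cebpb, chr1:153899945-153909714 (plus) for Glul and chr13:101680762-101768217 (minus) for Pik3r1. The locus that carries Cebpd, chr16:15887286-16146833, spans 259548 bases and reaches far past the gene, which the GENCODE annotation ends at 15891031. On the other strand it runs along 2310008H04Rik (newer symbol Spidr), whose annotated span overlaps that of Cebpd by 1808 bases. That gene was listed at 0.759, 0, 0 and 1.12 FPKM in Old 1, Old 2, Young 1 and Young 2, at or below 1.12 where Cebpd was between 2.22 and 23.5. Whether the authors' counting used strand was not stated, so a share of reads from the opposite gene in the Cebpd value was not tested.

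The order of levels among the 9 genes differed with age. In Young it ran Glul, Ddit4, Cebpb, Klf15, Nr3c1, Sesn1, Fkbp5, Cebpd and Pik3r1 by mean scaled FPKM, from 172 for Glul to 6.96 for Pik3r1. In Old it ran Glul, Nr3c1, Klf15, Sesn1, Cebpb, Pik3r1, Ddit4, Fkbp5 and Cebpd, from 67.7 to 3.54. Ddit4 thus held place 2 in Young and place 7 in Old, and Nr3c1 place 5 in Young and place 2 in Old. Neighbours whose scaled ranges overlapped were Nr3c1 with Sesn1, Sesn1 with Fkbp5 and Fkbp5 with Cebpd in Young, and Nr3c1 with Klf15 and Sesn1 with Cebpb in Old.

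Set against all tested genes, the median log2 difference of the members was −1.25 on either scale, while that of the 10266 genes was −0.01. In 8 of the 9 genes the difference was below 0 on either scale. Of the 10266 tested genes, 5332 were below 0 as deposited and 5279 after scaling. In 5 members the Young mean was at least 2-fold higher, and the share of all tested genes with such a fold was not computed. The Old samples both lay below the Young samples for 5 of 9 members as deposited (Ddit4, Fkbp5, Cebpd, Cebpb and Glul), where 1.93% of all tested genes had that order, and for 8 of 9 after scaling, where 26.0% had it. The limma fit with Benjamini-Hochberg adjustment (adjusted p under 0.05) called 13 genes lower in Old as deposited, 0.127% of those tested, and Ddit4 was among them. Of these 13 genes, 7 were listed at 0 in both Old samples, and Ddit4 was 1 of 3 above 0 in every sample. After scaling, 31 genes were called lower (0.302%), with Ddit4, Fkbp5 and Cebpd among them. When the median was taken over the tested genes instead, Ddit4 was the only member called. As the members were chosen on this contrast, nothing is read from these counts. Ddit4's call as deposited was lost when any 1 sample was left out, and after scaling it was kept without each of the 4 samples.

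**Figure D2:**
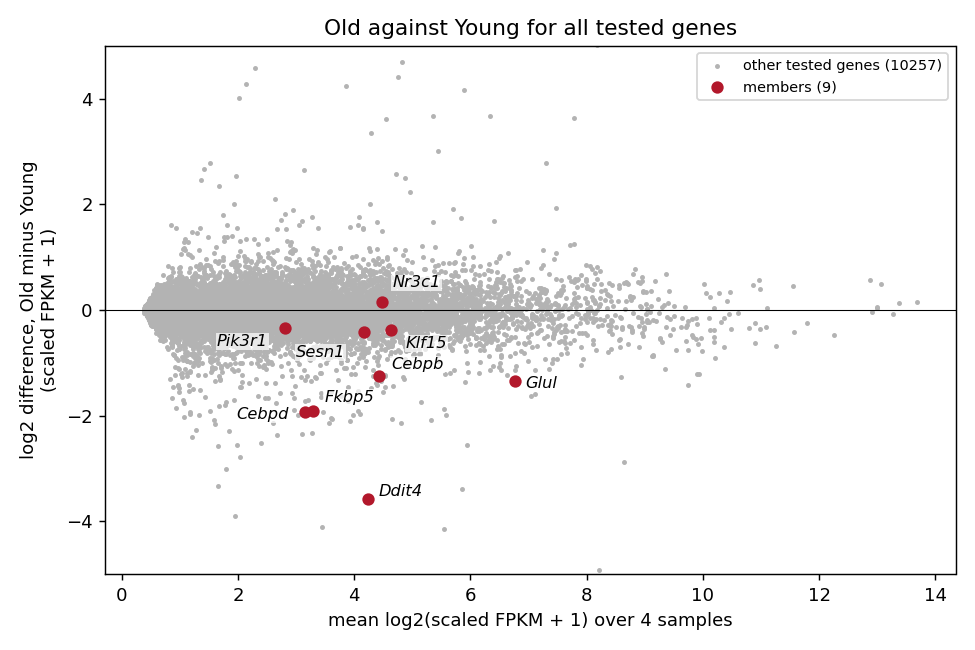
Log2 difference of scaled FPKM + 1, Old minus Young, against the mean level on the same scale for the 10266 tested genes, with the 9 members in red and 10257 other genes in gray; 16 genes lie beyond the y axis limit of 5 in either direction. Ddit4 lies at −3.58, Cebpd and Fkbp5 near −1.9, Glul and Cebpb near −1.3, and Nr3c1 at 0.15 within the gray band.

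Ratios of 2 genes within a sample cancel the factor between the samples only where both genes follow it alike. Sesn1 and Sesn2 did not, and Sesn2 was low, between 0.439 and 1.64 FPKM. The partner genes were relatives or partners of each member, picked with the results known, and the ratios repeat the Old and Young contrast on another scale. Each of the other 8 members had a lower ratio to Nr3c1 in each Old sample than in either Young sample. The share of all tested genes with that order over Nr3c1 was not computed, so nothing is read from the count. After median scaling, 26.0% of all tested genes had both Old samples below both Young samples. Klf15, Sesn1 and Pik3r1 overlapped between the ages as deposited. Ddit4 over Nr3c1 was 0.224 and 0.176 in Old 1 and Old 2 and 3.09 and 3.31 in Young 1 and Young 2, 16.0-fold higher in Young. The Young ratio was 5.10-fold higher for Cebpd, 4.95-fold for Fkbp5, 2.85-fold for Glul and 2.78-fold for Cebpb, and between 1.46-fold and 1.52-fold for Klf15, Pik3r1 and Sesn1.

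The closest relatives of the members showed other patterns. Ddit4l, the paralog of Ddit4 that also restrains mTORC1, was at 115 and 56.4 FPKM in Old 1 and Old 2 and at 38.7 and 74.3 in Young 1 and Young 2, so Ddit4 over Ddit4l was 0.0604 and 0.0504 in Old and 1.15 and 1.25 in Young. Old muscle thus held far more Ddit4l than Ddit4 transcript per length, and young muscle about equal levels. Fkbp5 over Fkbp4, a co-chaperone that favours receptor activity, was 0.0709 and 0.0658 in Old against 0.347 and 0.381 in Young. Cebpd and Cebpb over Cebpg, a C/EBP factor found in most tissues, were 4.16-fold and 2.27-fold higher in Young. Pik3r1 over Pik3ca, the catalytic subunit it binds, was 0.585 and 0.559 in Old and 0.979 and 1.00 in Young.

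**Figure D3:**
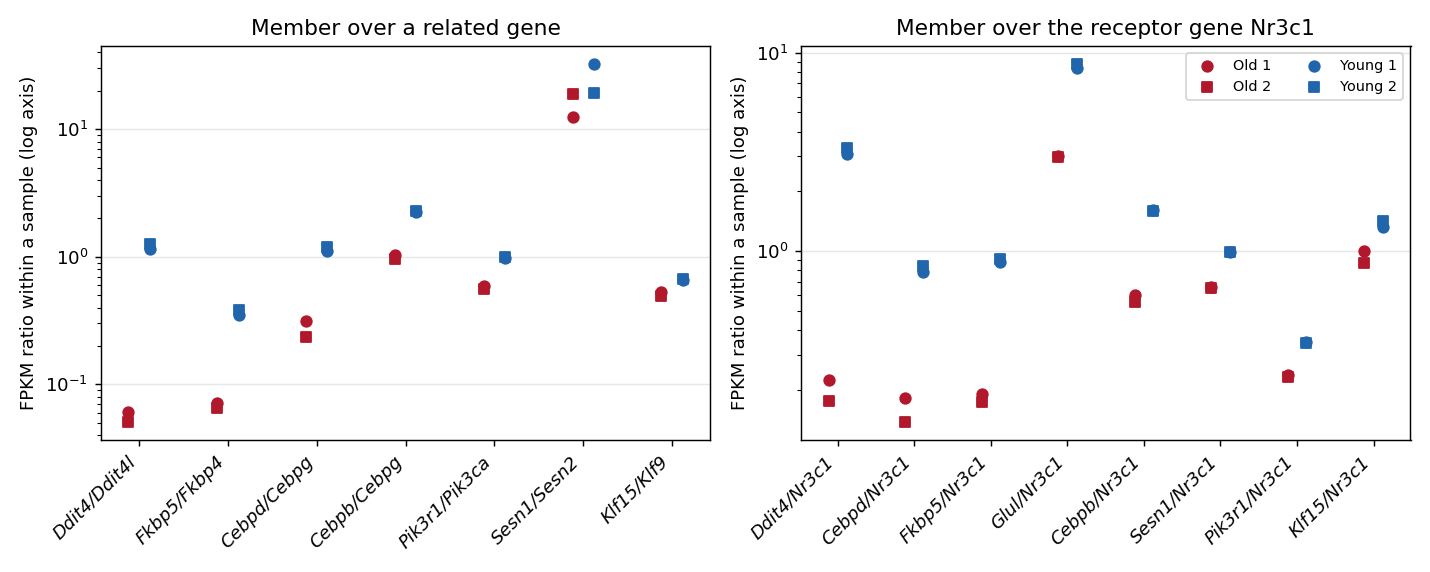
Ratios of FPKM within each sample on a log axis, of a member over a relative or partner on the left and of a member over the receptor gene Nr3c1 on the right; red is Old and blue Young, circles samples numbered 1 and squares samples numbered 2. Every ratio is lower in both Old samples, from 21.6-fold for Ddit4 over Ddit4l to 1.30-fold for Klf15 over Klf9. Sesn1 over Sesn2 is the most spread within an age (12.4 and 18.9 in Old, 32.5 and 19.3 in Young). Partners were picked with the results known, and the share of all tested genes with that order was not computed.

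Promoter sequences are shown for Ddit4 and Fkbp5, which stood far apart between the ages, and for Klf15, a receptor target that did not. Each is the stretch of 250 bases before the RefSeq start of the gene (GRCm38.p6, the assembly of mm10), written 5′ to 3′ on the strand of the gene, at chr10:59951771-59952020 (minus) for Ddit4, chr17:28486150-28486399 (minus) for Fkbp5 and chr6:90462326-90462575 (plus) for Klf15. Capitals mark CACGTG, the E-box that clock and other bHLH factors bind, and CCAAT, the box of factor NF-Y, or its reverse complement ATTGG.
Ddit4: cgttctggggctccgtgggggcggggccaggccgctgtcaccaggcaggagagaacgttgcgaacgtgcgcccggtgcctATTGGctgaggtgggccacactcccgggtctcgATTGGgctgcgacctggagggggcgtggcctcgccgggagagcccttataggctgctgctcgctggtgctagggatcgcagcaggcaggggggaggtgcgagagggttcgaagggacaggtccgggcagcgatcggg
Fkbp5: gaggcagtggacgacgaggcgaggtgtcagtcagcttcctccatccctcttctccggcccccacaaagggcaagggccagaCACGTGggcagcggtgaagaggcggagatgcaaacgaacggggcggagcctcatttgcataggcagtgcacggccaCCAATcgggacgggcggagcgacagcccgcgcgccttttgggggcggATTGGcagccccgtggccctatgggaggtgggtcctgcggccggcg
Klf15: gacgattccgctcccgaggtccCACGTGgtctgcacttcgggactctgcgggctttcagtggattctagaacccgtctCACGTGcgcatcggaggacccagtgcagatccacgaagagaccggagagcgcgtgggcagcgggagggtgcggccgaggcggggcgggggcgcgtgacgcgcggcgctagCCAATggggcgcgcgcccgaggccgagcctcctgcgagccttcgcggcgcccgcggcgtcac

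The search covered 250 bases before to 50 bases after the start, both strands, in 9 windows of 7 members, and in 32851 windows of the RefSeq table for comparison. CACGTG was found in Klf15, at 228, 172 and 3 bases before the start, and in Fkbp5 at 169 bases before it. The Klf15 match at 3 bases runs past the start, so it is not marked in the printed stretch. CACGTG was in 2 of the 9 member windows and in 7.15% of all windows. CCAAT was found in 6 of the 7 genes, which include Ddit4, Fkbp5 and Klf15. By window it was in 7 of the 9 and in 37.4% of all windows. GGGCGG, the GC box bound by Sp and Krüppel-like factors, was found in each of the 7 genes, and neighbouring matches in Cebpb shared bases. By window GGGCGG was in 8 of the 9 and in 35.7% of all windows. GTAAACA, a site of FoxO factors, was found in Sesn1 (1 of the 9 windows and 3.65% of all windows). TATAAA was found in Cebpb and Pik3r1 (2 of the 9 and 13.6%). The letters AGAACA, 1 arm of a glucocorticoid response element, and the full palindromic glucocorticoid response element, which can hold that arm, were in none of the 9 windows and in 19.0% and 0.475% of all windows. TGACGTCA, the cAMP response element, was also in none (1.79% of all windows). A match describes letters only, and elements further from the start were not searched.

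Other known target genes of the receptor did not share 1 direction. The list did not mark which of them the hormone raises and which it lowers. Of 34 such genes listed from textbook knowledge, 26 had a value and 24 were tested, of which 9 had a log2 difference above 0 and 15 below, with a median of −0.18 as deposited and −0.16 after scaling. None passed the adjusted threshold of the limma fit as deposited, and after scaling 1 did. At an unadjusted p under 0.05 the fit reached 1 of the 24 as deposited, higher in Old, and 6 higher and 8 lower after scaling. Over all 10266 genes that unadjusted threshold was reached by 0.341% higher and 0.409% lower as deposited, and by 9.29% higher and 12.1% lower after scaling. The gene past the adjusted threshold was Fbxo32, a ubiquitin ligase of muscle wasting, at 95.9 and 45.9 FPKM in Old 1 and Old 2 and 8.88 and 19.8 in Young 1 and Young 2. Fbxo32 was 4.94-fold higher in Old as deposited and 5.02-fold higher after scaling (scaled log2 difference 2.24 ± 0.14, SE; limma adjusted p = 0.0385), against 0.302% of all tested genes called higher on that scale and 0.175% as deposited. Without Young 1 the scaled call of Fbxo32 was lost (limma adjusted p = 0.0886), and it was kept without each of the other samples. Trim63, the other ubiquitin ligase of muscle wasting, was at 182 and 90.0 FPKM in Old and 45.04 and 87.6 in Young, 2.05-fold higher in Old as deposited, and did not pass the threshold (scaled limma adjusted p = 0.107).

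As deposited, 3 of the 24 genes had each Old sample above either Young sample, Fbxo32, Trim63 and Igfbp5, a binding protein of insulin-like growth factor, where 1.61% of all tested genes had that order. The reverse order held for 3, Per1, Foxo1 and Lcn2 (1.93% of all). After scaling, 9 had the first order, as 23.9% of all genes did, and 10 the reverse, as 26.0% did. Igfbp5, Foxo1 and Per1 are named for this order, after their values were seen. Foxo1, a FoxO factor that insulin holds back, was at 4.89 and 2.36 FPKM in Old and 6.83 and 13.2 in Young, and Igfbp5 at 152 and 70.2 in Old and 22.4 and 41.3 in Young. Target genes of the receptor were thus found on either side. Fbxo32 was above Ddit4 in Old and below it in Young, with a ratio of 13.8 and 16.1 in Old 1 and Old 2 and of 0.199 and 0.214 in Young 1 and Young 2.

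In the machinery around the receptor no gene passed the adjusted limma threshold on either scale. Of 22 chaperones, coregulators and hormone enzymes, 18 had a value and were tested, with 14 differences above 0 and 4 below and a median of 0.12 on either scale. The ages overlapped for all 18 as deposited, and after scaling both Old samples were above in 3 and below in 3, where 23.9% and 26.0% of all genes had those orders. At an unadjusted p under 0.05, 0 of the 18 were reached as deposited, and 2 higher and 1 lower after scaling (all genes 9.29% and 12.1%). Hsd11b1, the enzyme that reactivates the hormone inside cells, was at 4.89 and 1.63 FPKM in Old and 1.44 and 4.30 in Young, and is named after its values were seen.

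In the pathways that the members act in, no listed gene passed the adjusted limma threshold on either scale. In mTORC1 control, 16 of 18 listed genes were tested, with 5 differences above 0, 11 below and a median of −0.19 as deposited. At an unadjusted p under 0.05, 0 of the 16 were reached as deposited, and 1 higher and 4 lower after scaling, where 9.29% of all genes were higher and 12.1% lower by that threshold. Among genes of amino acid breakdown under Klf15 and of glutamine handling, 16 of 20 had a value and 12 were tested, with 2 above 0, 10 below and a median of −0.22. The unadjusted threshold was reached by 0 as deposited and by 1 higher and 5 lower of the 12 after scaling (all genes 9.29% and 12.1%). The lowest difference was that of Prodh, the proline dehydrogenase, named after its values were seen. As deposited Prodh was at 5.13 and 1.496 FPKM in Old and 4.48 and 11.5 in Young, which overlap. After scaling it was at 3.3 and 2.3 in Old against 6.8 and 7.5 in Young, without overlap. Of all tested genes, 26.0% had that order after scaling. Of PI3K subunits other than Pik3r1, 7 of 10 had a value and 5 were tested, with 4 differences above 0 and 1 reaching the unadjusted threshold after scaling, higher in Old (all genes 9.29%).

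Within their gene families the members stood out by position only as description. Of the other C/EBP genes, all 5 had a value and 4 were tested, Cebpa, Cebpg, Cebpz and Ddit3, with 2 differences above 0 and 2 below from −0.39 to 0.80 as deposited, against −1.91 for Cebpd. Cebpe was listed at 0 in every sample. Of 13 other FK506-binding proteins, 12 had a value and 10 were tested, with differences from −0.41 to 0.59, against −1.90 for Fkbp5. Of 14 other Krüppel-like factors, 12 had a value and 11 were tested, with differences from −0.68 to 0.84, and Klf15 at −0.38 lay inside that range. None of these relatives passed the adjusted limma threshold on either scale, nor the unadjusted one as deposited. After scaling the unadjusted threshold was reached by 1 C/EBP gene and 1 FK506-binding protein, both higher in Old, and by 1 Krüppel-like factor higher and 4 lower, against 9.29% higher and 12.1% lower over all genes.

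**Figure D4:**
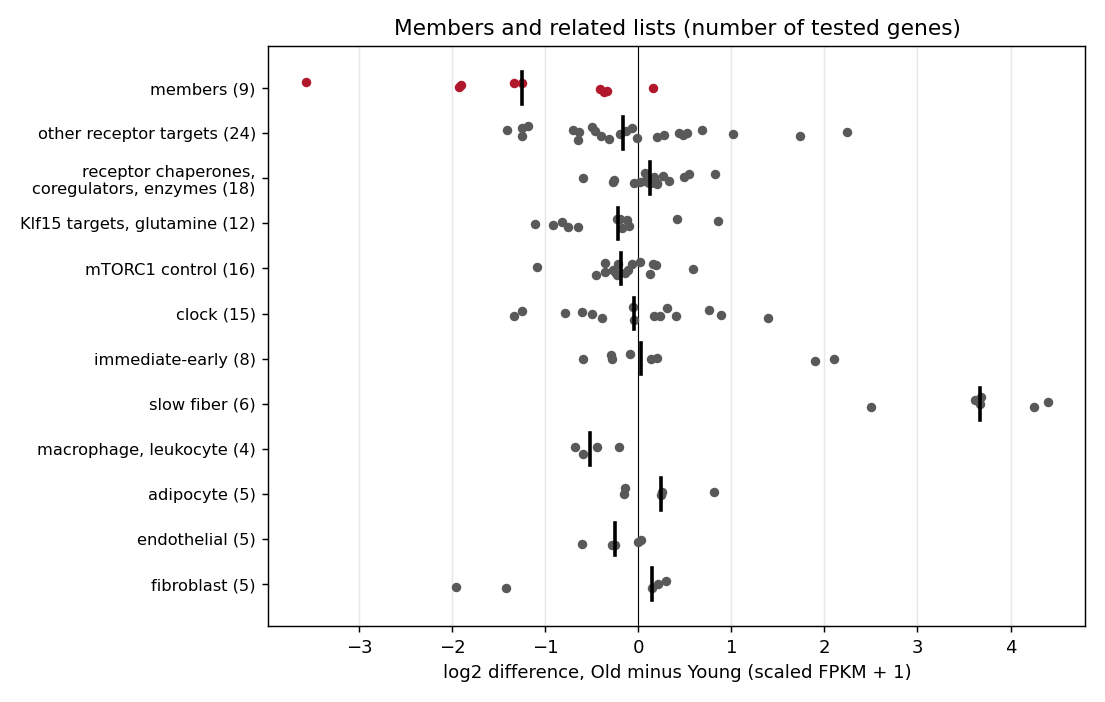
Log2 difference of scaled FPKM + 1, Old minus Young, for each tested gene of the members (red) and of 11 other lists (gray), with the number of tested genes in brackets; a black bar marks the median of a list. The members' median is −1.25, that of the other receptor targets −0.16 and that of the slow fiber genes 3.67.

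Clock genes and immediate-early genes, which follow the hour and the handling of a muscle, are given here because the hour of sampling was not among the labels. Of 16 clock genes, all had a value and 15 were tested, with 7 differences above 0 and 8 below. None passed the adjusted limma threshold on either scale, 0 passed the unadjusted one as deposited, and 3 higher and 4 lower passed it after scaling (all genes 9.29% and 12.1%). After scaling both Old samples were above in 6 and below in 6 (all genes 23.9% and 26.0%). As deposited the Old samples were both above in 1 and both below in 2 (all genes 1.61% and 1.93%), which are named for it: Arntl, a positive factor of the clock, at 6.81 and 3.22 FPKM in Old and 0.698 and 1.96 in Young, Per1, a repressor of the clock and a receptor target, at 16.8 and 8.72 in Old and 21.5 and 42.8 in Young, and Nfil3, a repressor of clock output, at 7.39 and 3.34 in Old and 10.5 and 19.0 in Young. Of 12 immediate-early genes, 10 had a value and 8 were tested, with 4 differences above 0 and 4 below. None passed the adjusted limma threshold as deposited, and 2 passed it after scaling, where 0.302% of all genes were called higher. Fos was at 20.2 and 9.54 FPKM in Old and 1.90 and 4.74 in Young (limma adjusted p = 0.0371), and Egr1 at 16.5 and 8.48 in Old and 1.24 and 3.25 in Young (adjusted p = 0.0385). Both were higher in Old. The part of the hour or of handling in the members' values was not tested.

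Markers of fiber types and of other cells are given beside these values, and in such bulk samples fewer cells of a type and less RNA per cell cannot be told apart. All 6 slow fiber genes, Myh7, Tnnt1, Myl2, Tnnc1, Tnni1 and Atp2a2, were higher in both Old samples on either scale. Their FPKM summed to 1282 and 461 in Old and to 35.9 and 89.0 in Young, with a median log2 difference of 3.67 after scaling, and 5 of 6 passed the limma threshold as deposited and 6 of 6 after scaling, where 0.175% and 0.302% of all genes were called higher. Each of the 5 calls as deposited was lost when any 1 sample was left out, and after scaling Atp2a2 lost its call without Young 1 (adjusted p = 0.062) while the other 5 kept theirs without each sample. Of the skeletal fiber markers used to check the tissue, Myh2, Mb, Des, Pygm, Casq1 and Pvalb were at 95.4 FPKM or more in every sample. Ckm was listed at 0 in all 4 samples, and Ttn and Tnnt3 in both Old samples. Ckm and Ttn are used by every muscle fiber and Tnnt3 by fast fibers, and an exact 0 of such genes may be a failed estimate. With these 0 values Ttn and Tnnt3 passed the limma threshold as deposited, lower in Old. Tnnt3 did so after scaling too (all genes lower 0.127% as deposited and 0.302% scaled).

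No marker gene of other cell types passed the adjusted limma threshold on either scale. All 7 macrophage and leukocyte genes had a value, summing to 22.3 and 8.18 FPKM in Old and 13.5 and 33.96 in Young, and the 4 tested were below 0 with a median of −0.52. Those 4 overlapped as deposited, and after scaling each had both Old samples below both Young samples (all genes 26.0%). Of the fibroblast genes, Col1a1 and Col3a1, the fibrillar collagens, were lower in both Old samples on either scale (10.6 and 5.45 against 23.2 and 46.3 FPKM for Col1a1). Pdgfra, Dcn and Dpt overlapped as deposited. After scaling Pdgfra and Dcn had both Old samples above both Young samples (all genes 23.9%) and Dpt overlapped. The 5 summed to 170 and 87.5 FPKM in Old and 108 and 211 in Young. The endothelial genes (5 tested, median −0.26) and the adipocyte genes (5 tested, median 0.24) overlapped in full as deposited, and Cfd was listed at 0 in Old 2 and Young 1. The Schwann cell genes summed to 17.6 and 8.15 FPKM in Old and 12.9 and 26.5 in Young. At an unadjusted p under 0.05, 1 fibroblast gene was reached as deposited, lower in Old. After scaling it was reached by 1 adipocyte gene higher in Old, and by 1 macrophage, 1 endothelial, 2 fibroblast and 1 Schwann cell gene lower (all genes 9.29% and 12.1%). The part of fiber type or of other cells in the members' differences was not tested.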

How the data were processed

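Whole TA muscle was profiled by mRNA-seq in 4 samples, 2 aged 20 months and 2 aged 3 months, grouped by their labels. The authors deposited FPKM per locus, which Cufflinks made for each sample from mm10 alignments (TopHat2 2.0.10, per the submitters' processing notes, with RefSeq genes as the guide and 2 mismatches as the limit). Adapters and duplicate reads had been taken out before alignment. Cuffdiff 2.1.1 was used for their own comparison, which needs aligned reads and was not repeated. Of the loci, 20605 had a value in all 4 samples (542 did not), and 1 incomplete line per sample was left out. Rows of 1 symbol were summed, giving 20340 labels. Genes past chromosome 7 or 8 in text order were not analysed here. FPKM sums were 698130, 226747, 251294 and 739302 in Old 1, Old 2, Young 1 and Young 2. Depth was unknown, so no counting error is given.

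log2(FPKM + 1) was compared with limma 3.58.1 in R 4.3.3 (eBayes with a trend, two-sided, adjusted p under 0.05) for genes reaching 1 FPKM in 2 or more samples, as deposited and after median scaling over the 10639 genes above 0 in every sample. The fold on this scale understates changes of low genes. Each SE printed is the moderated SE of this fit. The code was tested on simulated data. Tables and figures used Python 3.11.15, pandas 2.3.3, numpy 2.4.6 and matplotlib 3.10.9. Promoters came from a RefSeq table with no entry for Cebpd or Nr3c1.

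The members and gene lists were chosen with earlier results of these data known. Named were the members, list genes past the threshold, lists of at most 6 genes, and Fbxo32 and Trim63; other genes were named after their values were seen, as the text says. Glud1, Castor1, Dbp, Ciart, Des and Adgre1 were matched through another symbol or a joint label, and 30 list entries without a value were not analysed here. Alternatives were another pseudocount and filter, quantile normalization, the highest row per symbol, no trend, the replicate number as a block and leaving out each sample. Added after seeing the data were crossed pairs, scaling over the tested genes and centring of log2 values.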

Additional observations from a re-analysis of the deposited data

How the results depend on the processing

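The log2 differences of the 9 members kept their direction under every setting that used all 4 samples, with Ddit4 between −3.82 and −3.56 and the members' median near −1.25. As deposited, leaving out 1 sample moved that median between −1.74 and −0.77, and turned the direction of 4 members, with ranges of −0.92 to 0.17 for Klf15, −0.88 to 0.035 for Sesn1, −0.30 to 0.60 for Nr3c1 and −0.76 to 0.068 for Pik3r1. The factor between samples of one age enters these values whole when 1 of them is left out, and after median scaling the ranges were −0.46 to −0.29, −0.55 to −0.28, 0.01 to 0.30 and −0.47 to −0.22, and −1.39 to −1.11 for the median.

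Counts of limma calls moved far more, and the cause was not tested unless said. As deposited 18 genes were higher and 13 lower in Old. They became 31 and 31 with median scaling, 89 and 136 with quantile normalization, 75 and 129 with median centring, 4 and 2 when 1 FPKM was required in every sample, and 0 and 0 with no filter on low values (limma; 23 and 29 at an unadjusted p under 0.05). Members past the threshold, 1 as deposited, numbered 3 with median scaling, 5 with quantile normalization or centring, and 0 with either other filter or without a trend. List genes past it numbered 7 as deposited, with Ttn and Tnnt3, listed at 0 in both Old samples, among them. They numbered 17 with quantile normalization, 18 with centring, 2 with the stricter filter, 0 with none and 4 without a trend. A lower pseudocount, the highest row per symbol and scaling over the tested genes kept all these counts within 1.5 times those as deposited. Against median scaling, scaling over the tested genes gave fewer calls. It called 12 genes higher and 13 lower in place of 31 and 31, and 6 list genes in place of 10. Of the members only Ddit4 was past the threshold, and Fkbp5 and Cebpd were not.

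The replicate numbers did not pair the samples. Over 10266 genes, same-numbered deviations from the age means were correlated at −0.885 as deposited and at −0.905 after median scaling. Old 1 thus deviated in the way of Young 2, and Old 2 in the way of Young 1. Multiplying each sample by 1 factor did not remove that likeness, and its source was not tested. With the replicate block, 2 genes were higher and 3 lower, with 0 members and 1 list gene, and with the block and median scaling 66 and 90, with 3 members and 16 list genes. With crossed pairs as a block, chosen after seeing the data, 2812 were higher and 3374 lower, with 9 members and 114 list genes past the threshold.

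Without 1 sample, whose age then takes its spread from the other age, 2 to 6 genes were higher and 3 to 10 lower as deposited, with 0 members and 1 to 2 list genes. After median scaling 24 to 534 were higher and 29 to 675 lower, with 3 to 5 members and 9 to 32 list genes. The counts were largest without Old 1 (307 and 675) and without Young 2 (534 and 405, with 30 list genes), and came to 50 and 64 without Old 2.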
